A study of Mus musculus with 10 samples.

Results

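Nascent RNA of mouse embryonic stem cells labelled Eed null was set against nascent RNA of the cells labelled EloA WT, the unedited Elongin A cells of the same series. The comparison covers 4 of the series' 10 samples: 2 Eed null samples, deposited together as 1 averaged column (Eed_null below), and 2 wild-type libraries with a column each (EloA_WT 1 and EloA_WT 2). It was made on intronic RPKM, in which each gene's intron reads are divided by intron length and library size, as log2(RPKM + 0.1). Genes entered where their mean RPKM over the 3 columns reached 0.1, which left 15127 of the 24901 genes in the table. Because the Eed null samples share 1 column, they have no spread of their own and the comparison is a description: a gene was called higher or lower where Eed_null lay at least 2-fold (1 on the log2 scale) beyond both EloA_WT libraries. A test was possible only under the assumption that the averaged column varies like 1 library of other groups, and it is given as an alternative. Log2 differences of single genes are against the EloA_WT library nearer to Eed_null, and medians over gene lists, length classes and chromosomes are of differences from the EloA_WT mean.

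All of these cells grew in medium with serum, LIF, 1 µM PD0325901 (a MEK inhibitor) and 3 µM CHIR99021 (a GSK3 inhibitor), and took up 2 mM bromouridine for 10 min before the labelled RNA was captured with an antibody. The labels give the line CCE28 and the genotype EloA WT for the controls. For the Eed null samples the titles say Eed null, the line field says CCE28, the genotype field says EloA null, and the data columns are named for CJ7, the line that the growth protocol gives for every sample. The titles were followed here, and genotype and line background cannot be told apart. The labels do not say how Eed was disrupted or whether the null cells are 1 clone. They also do not say whether the 2 samples of a group came from separate cultures. A pooled column of 2 wild-type CJ7 samples (CJ7_WT) is therefore given beside most of the genes and groups described. Feeder fibroblasts were used for growth and removed by plating, per the growth protocol, whereas the extraction protocol describes feeder-free dishes.

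Polycomb repressive complex 2 (PRC2) methylates lysine 27 of histone H3, and Eed is one of its core proteins. It binds the methylated lysine and stimulates the enzyme of the complex, Ezh2 or Ezh1, and stem cells without Eed lose the mark. In stem cells PRC2 occupies CG-rich promoters of developmental regulators that are silent there. Bromouridine enters RNA while it is made, so reads in introns report recent transcription more closely than reads in mature mRNA.

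Promoters of PRC2 targets are typically rich in CG dinucleotides, and 4 promoters are shown so that this feature can be seen at genes with clear differences. They were chosen after the values were seen, and each is the 250 bases before the RefSeq start (GRCm38.p6), 5′ to 3′ on the gene's strand, with every CG in capitals. Sema5a (a semaphorin of axon guidance, chr15:32244563-32244812, plus strand, 17 CG), Sycp1 (a meiotic synaptonemal complex protein, chr3:102936101-102936350, minus strand, 17 CG) and Crx (a photoreceptor homeobox factor, chr7:15879956-15880205, minus strand, 1 CG) were higher in Eed_null. Cd59a (an inhibitor of complement, chr2:104095551-104095800, plus strand, 0 CG) was lower.
Sema5a: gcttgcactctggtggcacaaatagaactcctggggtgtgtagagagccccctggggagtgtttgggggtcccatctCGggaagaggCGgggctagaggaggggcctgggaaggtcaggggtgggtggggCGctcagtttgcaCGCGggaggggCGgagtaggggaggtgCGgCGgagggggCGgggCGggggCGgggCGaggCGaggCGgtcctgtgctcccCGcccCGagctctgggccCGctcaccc
Sycp1: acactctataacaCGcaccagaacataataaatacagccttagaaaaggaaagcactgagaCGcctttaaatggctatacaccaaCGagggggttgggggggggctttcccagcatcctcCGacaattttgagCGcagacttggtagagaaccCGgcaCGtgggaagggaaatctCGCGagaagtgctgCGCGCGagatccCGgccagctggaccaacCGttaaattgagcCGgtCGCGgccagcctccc
Crx: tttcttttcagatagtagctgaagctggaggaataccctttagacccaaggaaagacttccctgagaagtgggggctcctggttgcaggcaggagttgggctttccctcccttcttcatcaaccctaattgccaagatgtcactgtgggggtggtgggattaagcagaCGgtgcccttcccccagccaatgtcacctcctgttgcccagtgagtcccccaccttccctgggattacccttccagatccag
Cd59a: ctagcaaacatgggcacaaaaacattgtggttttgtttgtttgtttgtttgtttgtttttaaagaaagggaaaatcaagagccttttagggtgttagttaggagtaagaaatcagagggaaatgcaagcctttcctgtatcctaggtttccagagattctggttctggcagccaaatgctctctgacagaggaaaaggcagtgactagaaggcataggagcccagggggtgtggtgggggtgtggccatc
Over the 22862 genes with 1 start in the RefSeq promoter table, the median was 5 CG and 37.4% had at least 10. Among the genes tested the median was 16 CG and 73.1% had at least 10, so a window like that of Sema5a or Sycp1 is common there. Only 51.6% of the genes tested, 44.4% of the higher and 46.8% of the lower genes had a single matched promoter. Among those matched, 67.4% of the higher and 64.5% of the lower genes had at least 10 CG, with medians of 17 and 13. The other genes could not be counted, so these values describe the matched genes only.

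Between the wild-type libraries the median of the signed log2 differences (EloA_WT 1 minus 2) was 0.09, with an SD over genes of 0.60. The median SD of a gene between the 2 libraries was 0.16 (log2), and 4.57% of genes were at least 2-fold apart. Eed_null lay at least 2-fold above both in 871 genes (5.76%) and at least 2-fold below both in 1199 (7.93%). At any distance it was above both in 5501 genes (36.4%), below both in 7218 (47.7%) and between them or level with one in 2408 (15.9%). The median difference from the EloA_WT mean was -0.10. The 42.1% share of higher genes among the calls became 50.1% when the columns were set to equal medians and 52.5% after quantile normalization. CJ7_WT lay at least 2-fold above both EloA_WT libraries in 267 genes (1.77%) and below both in 1402 (9.27%), with the same 2 libraries as controls. Where limma took the averaged column as 1 observation that varies like the Elongin A groups, 1119 genes (7.4%) were called higher and 1810 (12%) lower at an adjusted p under 0.05.

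**Figure D1:**
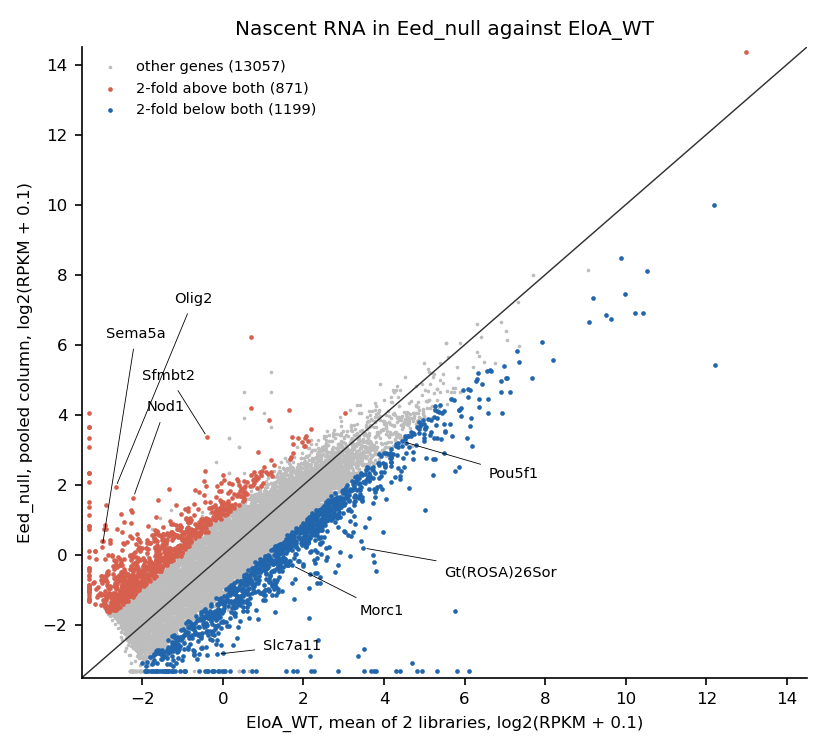
Each point is 1 of the 15127 genes, with the mean of the 2 EloA_WT libraries on the x axis and the pooled Eed_null column on the y axis, both as log2(RPKM + 0.1); the line marks equal values. Red points are the 871 genes at least 2-fold above both EloA_WT libraries and blue points the 1199 at least 2-fold below both. The blue points extend to genes with much RNA in wild type, whereas most red points lie at low wild-type levels. Some of the red points passed the filter only through Eed_null.

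CJ7_WT was set beside each of the 2 sets of called genes. Of the 871 higher genes, 419 (48.1%) were also at least 2-fold above CJ7_WT, which is 2.77% of all genes tested. Of the 1199 lower genes, 113 (9.42%) were also at least 2-fold below CJ7_WT, or 0.747% of genes tested, and in 814 (67.9%) CJ7_WT itself lay at least 2-fold below both EloA_WT libraries. The matching count among the higher genes was 165 (18.9%). With a filter on EloA_WT alone, 602 genes were called higher and 1207 lower, so part of the 871 passed only through Eed_null. Their standing against CJ7_WT was not counted under that filter, so the shares of the 2 sets are not compared. Most of the lower genes were thus low in CJ7_WT as well. At any distance, Eed_null lay above all 3 wild-type columns in 4288 genes (28.3%) and below all 3 in 3694 (24.4%).

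Among the named genes with recovered counts, Nod1, an intracellular sensor of bacterial peptidoglycan, lay farthest above EloA_WT. It had 0.110 and 0.118 RPKM in EloA_WT 1 and 2, 0.0998 in CJ7_WT and 3.00 in Eed_null, a log2 difference of 3.83. Sfmbt2 encodes a Polycomb-group protein with MBT domains and is imprinted in the placenta. It had 0.781 and 0.566 RPKM in EloA_WT, 0.410 in CJ7_WT and 10.2 in Eed_null, a log2 difference of 3.54 that rests on 165605 recovered counts in Eed_null. In both genes the 3 wild-type columns lay close together and Eed_null stood apart. For a pair of genes that ranked above Nod1, counts could not be recovered. Olig2, a basic helix-loop-helix factor of oligodendrocytes and motor neurons, had 0.150 RPKM in EloA_WT 1, was listed at 0 in EloA_WT 2 and CJ7_WT, and had 3.71 in Eed_null. Prr18, which encodes a proline-rich protein, was listed at 0 in all 3 wild-type columns and had 1.59 RPKM in Eed_null. Gene models without a proper name were passed over, some with differences as large: Gm10499 had 0.0437 and 0.0259 RPKM in EloA_WT, 0.00878 in CJ7_WT and 2.60 in Eed_null. Olig2, Prr18 and Gm10499 had an EloA_WT mean under 0.1 RPKM and passed the filter only through Eed_null.

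Several of the strongest differences were in genes of differentiated cells with almost no wild-type signal. Crx had 0.0191 and 0.0339 RPKM in EloA_WT and 1.23 in Eed_null (537 recovered counts against 4 and 6), and 0.00576 in CJ7_WT. Sema5a had 0.0131 and 0.0393 RPKM in EloA_WT, 0.00716 in CJ7_WT and 1.08 in Eed_null. Osr2, a zinc-finger regulator of limb and palate development, had 0.0567 and 0.0336 RPKM in EloA_WT, 0.0532 in CJ7_WT and 1.17 in Eed_null. Guca1a, a calcium-sensing guanylate cyclase activator of photoreceptors, had 0.0201 and 0.0714 RPKM in EloA_WT, 0.0485 in CJ7_WT and 1.25 in Eed_null. Rptn and Hrnr, which encode cornified envelope proteins of the epidermis, rested on few counts: 2 and 4 in EloA_WT against 151 in Eed_null for Rptn, and 2 and 1 against 88 for Hrnr. Tmem92, a membrane protein gene, went from 1 and 3 counts in EloA_WT to 210 in Eed_null. All of these were also more than 2-fold above CJ7_WT. Apart from Rptn, all had an EloA_WT mean under 0.1 RPKM and passed the filter only through Eed_null. Nothing is therefore read from their low wild-type level.

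The other named genes among the 15 farthest above EloA_WT were Chst15, Eif4g3, a pseudogene and Sycp1, which is described with the germline genes. Chst15, a sulfotransferase of chondroitin sulfate, had 0.102 and 0.105 RPKM in EloA_WT, 0.206 in CJ7_WT and 1.36 in Eed_null. Eif4g3, a scaffold of the translation initiation complex, had 0.234 and 0.216 RPKM in EloA_WT, 2.87 in Eed_null and an intermediate 1.02 in CJ7_WT. Gpr137b-ps, with 233 recovered counts in Eed_null against 1 and 2, is a pseudogene, and reads of its parent gene could have been assigned to it. It too passed the filter only through Eed_null.

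**Figure D2:**
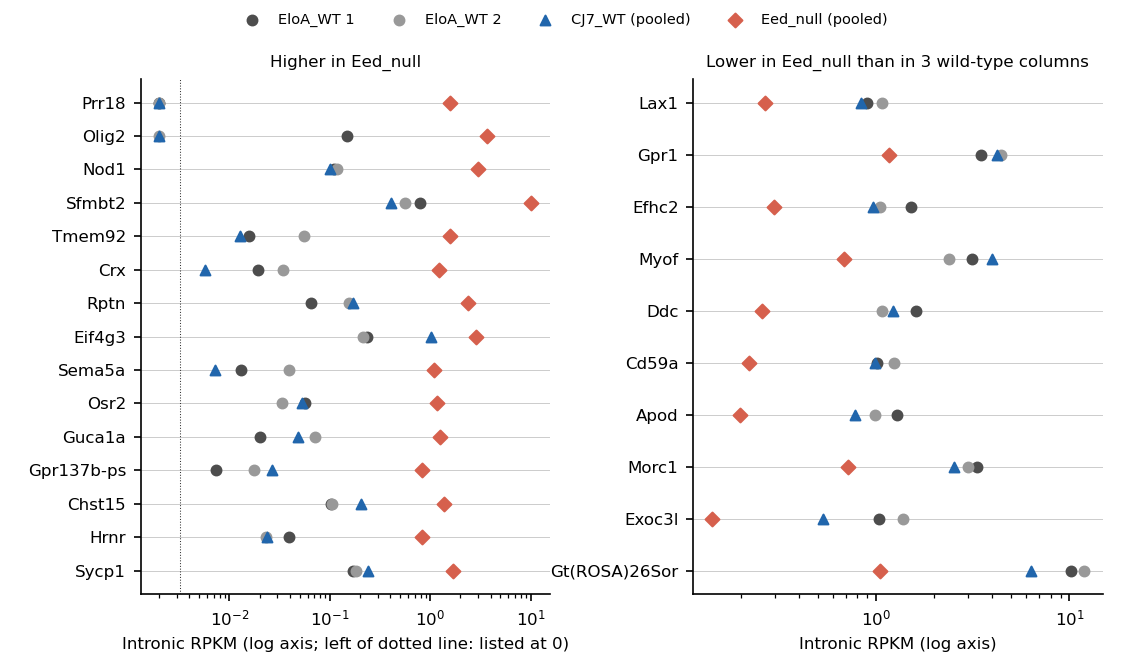
Intronic RPKM on a log axis for the 15 genes with a proper name that lay farthest above both EloA_WT libraries (left) and the 10 farthest below all 3 wild-type columns (right), unnamed gene models passed over; circles are the single EloA_WT libraries, triangles the pooled CJ7_WT and diamonds the pooled Eed_null column. Values listed at 0 are drawn left of the dotted line; no diamond overlaps a wild-type symbol, and for Eif4g3 CJ7_WT lies well above EloA_WT.

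Genes silent in all 3 wild-type columns were listed by their level in Eed_null. Under 0.1 RPKM in EloA_WT 1, EloA_WT 2 and CJ7_WT and at least 0.5 in Eed_null were 46 of the 24901 genes in the table. Of these, 32 had at least 30 recovered counts. For most of the others counts could not be recovered, as for Prr18. Many of the 46 were gene models without a proper name, such as Gm17528, at 0 in all 3 wild-type columns and 12.5 RPKM in Eed_null. Gm8909 stands on more than 1 line with the same values and is counted each time. The reverse pattern, under 0.1 RPKM in Eed_null and at least 0.5 in all 3 wild-type columns, was met by 8 genes, 2 of them with at least 30 counts in EloA_WT. It asks for a high level in 3 columns instead of 1, so the reverse count is not set against the first. The 32 included Pitx1, a homeobox factor of hindlimb and pituitary, at 0.505 RPKM, Prdm16, a regulator of brown fat and haematopoietic stem cells, at 0.505 RPKM, and Dmbx1, a homeobox factor of the midbrain, at 0.550 RPKM. Frem2, an extracellular matrix protein of the epidermal basement membrane, stood at 0.790 RPKM with 8305 counts, and Crym, a thyroid hormone binding protein, at 0.554 RPKM. These genes were named after their values were seen, apart from Pitx1.

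Developmental transcription factors bound by PRC2 in stem cells are mostly silent there, so the filter bears on their counts. Of the 137 listed, 122 are in the table and 54 were tested: 12 were called higher and 1 lower, 38 lay above both EloA_WT libraries and 9 below both, with a median of 0.71 against -0.10 over all genes, and 0.01 for CJ7_WT. Some of the 54 passed only through their level in Eed_null, so nothing is read from this tally. With a filter on EloA_WT alone (mean of at least 0.1 RPKM, an alternative chosen after seeing the data), 43 factors were tested, 6 were called higher and 1 lower, 24 lay above both libraries and 10 below both, and the median was 0.33. Over all 14749 genes that pass this filter, 602 (4.08%) were called higher and 1207 (8.18%) lower, with a median of -0.15. Lmx1b, a LIM homeobox factor of limb and midbrain, had 0.151 and 0.0744 RPKM in EloA_WT, 0.306 in CJ7_WT and 1.30 in Eed_null. Pitx1 had 0.0366 and 0.0217 RPKM in EloA_WT, 0.0688 in CJ7_WT and 0.505 in Eed_null. Tbx15, a T-box factor of skeleton and skin, had 0.499 and 0.281 RPKM in EloA_WT, 0.736 in CJ7_WT and 1.54 in Eed_null.

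The other factors called higher included Nr2f2, an orphan nuclear receptor of veins and atria, with 0.0914 and 0.173 RPKM in EloA_WT, 0.153 in CJ7_WT and 0.545 in Eed_null. Tbx20, a T-box factor of the heart, had 0.0423 and 0.120 RPKM in EloA_WT, 0.0550 in CJ7_WT and 0.431 in Eed_null. Tbx5, another cardiac and forelimb T-box factor, had 0.0478 and 0.0382 RPKM in EloA_WT, 0.0653 in CJ7_WT and 0.246 in Eed_null. Nfia, a factor of glial development, had 0.149 and 0.101 RPKM in EloA_WT, 0.204 in CJ7_WT and 0.513 in Eed_null. The related Nfib was the only listed factor called lower, with 2.35 and 2.15 RPKM in EloA_WT, 1.64 in CJ7_WT and 0.760 in Eed_null. Pitx1, Tbx20 and Tbx5 had an EloA_WT mean under 0.1 RPKM and passed the filter only through Eed_null. Of the 12 higher factors, 10 were also at least 2-fold above CJ7_WT. That count includes factors that passed only through Eed_null, so nothing is read from it. The 83 listed factors not tested either lay under the filter or are not in the table, so the counts describe only those with some signal.

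Hox genes set position along the body axis, and their clusters are the textbook PRC2 targets. Of 39 Hox genes, 23 were tested, 7 were called higher and 0 lower, with a median of 0.79 (CJ7_WT 0.12). With the filter on EloA_WT alone, 16 were tested, and 2 (12.5%) were called higher and 0 lower, against 4.08% and 8.18% of all genes. The median was then 0.33, so the first count rests largely on genes that passed through Eed_null. Of the 7, 5 lay in the HoxC cluster. Hoxc8 had 0.0769 and 0.0455 RPKM in EloA_WT, 0.541 in CJ7_WT and 0.796 in Eed_null. Hoxc9 had 0.0832 and 0.0591 RPKM in EloA_WT, 0.405 in CJ7_WT and 0.824 in Eed_null. Hoxc10 had 0.0325 and 0.0192 RPKM in EloA_WT, 0.320 in CJ7_WT and 0.563 in Eed_null. CJ7_WT thus lay well above EloA_WT in these 3 genes. Only Hoxd10, with 0.0379 and 0.0898 RPKM in EloA_WT, 0.0915 in CJ7_WT and 0.420 in Eed_null on 23 counts, was also 2-fold above CJ7_WT among the 7. Hoxb9 was lower in Eed_null than in CJ7_WT, at 1.33 against 2.12 RPKM. The short introns of Hox genes leave few counts, and several members stood at 0 in 1 EloA_WT library.

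Secreted signals and their pathway members bound by PRC2 had a median nearer to 0. Of 44 tested, 7 were called higher and 1 lower, with a median of 0.23 (CJ7_WT 0.05). With the filter on EloA_WT alone, 5 of 40 (12.5%) were called higher and 1 (2.5%) lower, against 4.08% and 8.18% of all genes, with a median of 0.11. The ligands Wnt7b and Lefty2 had the largest differences: Wnt7b, a canonical Wnt ligand, had 0.0457 and 0.0804 RPKM in EloA_WT, 0.228 in CJ7_WT and 0.693 in Eed_null. Lefty2, a secreted Nodal antagonist, had 1.85 and 1.59 RPKM in EloA_WT, 1.73 in CJ7_WT and 7.56 in Eed_null. Bone morphogenetic proteins went either way. Bmp7 had 0.162 and 0.0746 RPKM in EloA_WT, 0.194 in CJ7_WT and 0.530 in Eed_null, and Bmp6 had 0.0420, 0.0640, 0.0569 and 0.282 RPKM in the same order. Wnt7b and Bmp6, with an EloA_WT mean under 0.1 RPKM, passed the filter only through Eed_null. Bmp4 had 0.442 and 0.710 RPKM in EloA_WT, 0.0973 in CJ7_WT and 0.142 in Eed_null. Slit2, an axon guidance ligand, and Gli2, the transcriptional effector of Hedgehog signalling, were both called higher, Gli2 at 2.59 and 2.06 RPKM in EloA_WT and 5.82 in Eed_null. In CJ7_WT Gli2 stood at 6.50 RPKM, above Eed_null.

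Lineage genes of early embryo cell types were examined next. Of 16 endoderm and primitive endoderm genes tested, 6 were called higher and 0 lower (median 0.71, CJ7_WT 0.16). With the filter on EloA_WT alone, 4 of 12 (33.3%) were called higher and 0 lower, against 4.08% and 8.18% of all genes, with a median of 0.65. Col4a1, a collagen IV chain of basement membrane, had 0.461 and 0.437 RPKM in EloA_WT, 0.675 in CJ7_WT and 1.84 in Eed_null. Col4a2, its partner chain, had 0.233 and 0.208 RPKM in EloA_WT, 0.439 in CJ7_WT and 1.21 in Eed_null. Gata6, the zinc-finger factor that specifies primitive endoderm, had 0.185 and 0.133 RPKM in EloA_WT, 0.184 in CJ7_WT and 0.622 in Eed_null. Lamb1, a laminin chain, had 0.493 and 0.303 RPKM in EloA_WT, 0.447 in CJ7_WT and 1.65 in Eed_null, and Dab2, an endocytic adaptor of visceral endoderm, had 0.0799, 0.101, 0.162 and 0.393 RPKM in the same order. Gata4, a partner factor, lay just short of the 2-fold limit at 0.99, while Sox17, Pdgfra, Sox7, Foxa1, Foxa2 and Cer1 stayed under the filter on low values, with Foxa2 and Cer1 at 0 in every column used. Among 9 trophectoderm genes tested, 2 were called higher: Cdh3, which encodes P-cadherin, with 0.528 and 0.304 RPKM in EloA_WT, 0.451 in CJ7_WT and 1.47 in Eed_null, and Gata2, at 0.0794, 0.0752, 0.0766 and 0.298 RPKM in the same order. Dab2 and Gata2, with an EloA_WT mean under 0.1 RPKM, passed only through Eed_null. With the filter on EloA_WT alone, 1 of 9 trophectoderm genes was called higher (11.1%), against 4.08% of all genes. Cdx2, the factor that defines the lineage, did not pass the filter. In a bulk sample, a few cells of a lineage with much RNA and many cells with little cannot be told apart.

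Fibroblast markers were measured because the cells were grown on feeders. Of 34 markers, 28 were tested, and 5 were called higher and 0 lower, against 5.76% and 7.93% of all genes. Above both libraries lay 19 and below both 4, against 36.4% and 47.7% of all genes. The median was 0.52 for Eed_null and 0.39 for CJ7_WT. Their summed level was 35.9 and 36.7 RPKM in EloA_WT 1 and 2, 49.4 in Eed_null and 48.7 in CJ7_WT. Col1a1, a chain of fibrillar collagen I, had 0.714 and 0.578 RPKM in EloA_WT, 3.13 in CJ7_WT and 3.80 in Eed_null, whereas Dcn and Lum, other fibroblast markers, were at 0.0123 and 0.0292 RPKM in Eed_null. None of the 5 was 2-fold above CJ7_WT as well. The part of other cells in the gene groups above was not tested.

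Germline genes, which are silenced in somatic cells and stem cells largely through DNA methylation and Polycomb complexes, formed the group in which Eed_null and CJ7_WT differed most from each other among the groups with a higher median. Of 27 germline and 2-cell stage genes tested, 8 were called higher and 1 lower, with a median of 0.64 against EloA_WT and 0.92 against CJ7_WT. With the filter on EloA_WT alone, 8 of 25 (32%) were called higher and 1 (4%) lower, against 4.08% and 8.18% of all genes. The median was again 0.64. Sycp1 had 0.169 and 0.182 RPKM in EloA_WT, 0.241 in CJ7_WT and 1.67 in Eed_null on 15324 counts. Brdt, a testis bromodomain protein, had 0.109 and 0.118 RPKM in EloA_WT, 0.395 in CJ7_WT and 0.924 in Eed_null. Piwil2, a Piwi protein of the piRNA pathway, had 0.404 and 0.316 RPKM in EloA_WT, 0.371 in CJ7_WT and 1.40 in Eed_null, and Mov10l1, a helicase of the same pathway, had 0.244, 0.191, 0.132 and 0.671 RPKM in the same order. The exception was Tex19.1, a gene of germ cells and placenta, at 8.81 and 8.83 RPKM in EloA_WT, 1.70 in CJ7_WT and 1.88 in Eed_null on 23 counts. For Sycp1, Brdt, Piwil2 and Mov10l1, Eed_null thus lay above every wild-type column by at least 2-fold.

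**Figure D3:**
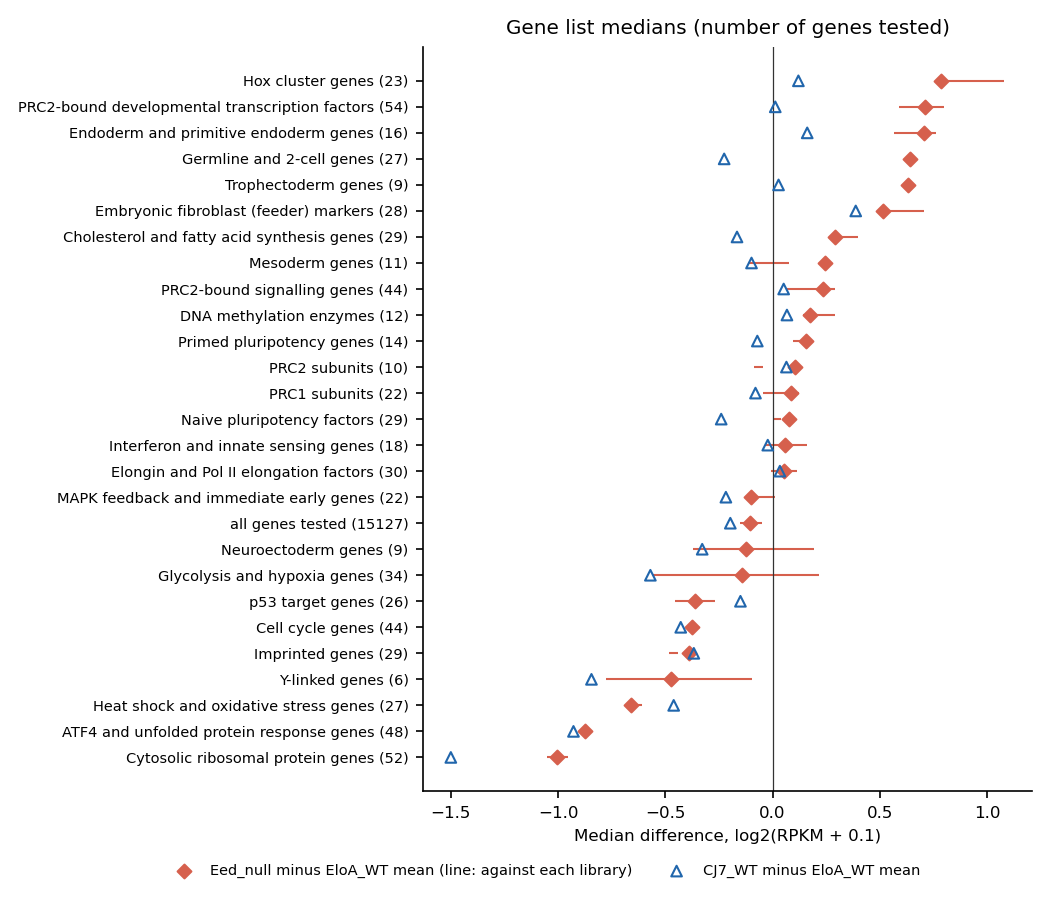
Median difference from the EloA_WT mean, on the log2(RPKM + 0.1) scale, for 26 gene lists and all genes tested; diamonds are Eed_null, lines join the medians against each EloA_WT library, and triangles are CJ7_WT. Hox, developmental factor, endoderm, germline and trophectoderm lists lie at 0.63 to 0.79 for Eed_null with CJ7_WT between -0.23 and 0.16, whereas the stress and ribosomal lists lie below 0 in both; with the filter on EloA_WT alone the first 2 of these lists lie at 0.33.

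Imprinted genes are expressed from 1 parental allele. Of 29 tested, 2 (6.9%) were called higher and 4 (13.8%) lower, against 5.76% and 7.93% of all genes. Below both EloA_WT libraries lay 20, against 47.7% of all genes, and the median was -0.39 (CJ7_WT -0.37). Besides Sfmbt2, the higher gene was Airn, a long noncoding RNA transcribed antisense within Igf2r, at 0.666 and 0.515 RPKM in EloA_WT, 0.904 in CJ7_WT and 1.94 in Eed_null. Igf2r itself lay above both libraries at 1.53, 1.32 and 2.92 RPKM, and without strand information reads of the overlapping pair cannot be told apart. Maternally expressed noncoding RNAs of the Dlk1-Dio3 region were lower: Mirg had 4.76 and 4.71 RPKM in EloA_WT, 1.52 in CJ7_WT and 0.810 in Eed_null. Rian had 6.77 and 7.41 RPKM in EloA_WT, 4.75 in CJ7_WT and 1.99 in Eed_null, and Meg3 had 7.19, 8.85, 9.20 and 4.18 RPKM in EloA_WT 1, EloA_WT 2, CJ7_WT and Eed_null, short of the 2-fold limit. Mest, a paternally expressed hydrolase gene, had 1.34 and 1.45 RPKM in EloA_WT, 0.467 in CJ7_WT and 0.375 in Eed_null.

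The PRC2 genes themselves gave no called member. Eed had 10.6 and 14.9 RPKM in EloA_WT, 10.0 in CJ7_WT and 7.97 in Eed_null, so its introns were still transcribed in the cells labelled Eed null. Since the labels do not give the lesion, this level does not check the genotype. Ezh2, the main methyltransferase, had 5.40 and 5.15 RPKM in EloA_WT, 5.09 in CJ7_WT and 4.45 in Eed_null, and Suz12, a core scaffold, had 12.4, 15.3, 15.6 and 16.1 in the same order. Jarid2, an accessory subunit, lay between the EloA_WT libraries at 10.99, 15.2, 14.8 and 14.4 RPKM. Aebp2, another accessory subunit, was the member farthest above both, at 5.11, 6.79 and 11.5 RPKM with 10.1 in CJ7_WT. Tceb3, the gene of Elongin A, had 1.83 and 2.03 RPKM in EloA_WT, 1.51 in CJ7_WT and 1.89 in Eed_null, between its wild-type values, despite the genotype field that reads EloA null. Intronic reads likewise cannot show whether an Elongin A protein was made. Among 22 PRC1 genes only Cbx7, a chromodomain subunit prominent in stem cells, was called, with 2.96 and 3.31 RPKM in EloA_WT, 5.84 in CJ7_WT and 6.88 in Eed_null.

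Markers of naive stem cells were present throughout. Nanog had 21.5 and 24.0 RPKM in EloA_WT, 39.2 in CJ7_WT and 33.6 in Eed_null. Klf4 had 5.69 and 4.66 RPKM in EloA_WT, 6.31 in CJ7_WT and 7.79 in Eed_null. Pou5f1, the gene of Oct4, had 19.2 and 24.7 RPKM in EloA_WT, 7.45 in CJ7_WT and 9.38 in Eed_null, a log2 difference of -1.03 just past the limit. For these 3 factors Eed_null and CJ7_WT stood on the same side of EloA_WT. Of 29 naive genes tested, 1 (3.45%) was called higher and 2 (6.9%) lower, against 5.76% and 7.93% of all genes. Zfp42, the gene of Rex1, was lower in Eed_null than in any wild-type column, at 41.0 RPKM against 69.7, 78.2 and 75.7, without reaching 2-fold. Dppa3, a maternal factor that protects DNA methylation in the zygote, had 0.314 and 0.144 RPKM in EloA_WT, 0.273 in CJ7_WT and 2.01 in Eed_null. Dppa5a, an RNA-binding protein of stem cells, had 61.1 and 75.9 RPKM in EloA_WT, 16.9 in CJ7_WT and 22.6 in Eed_null. Of the DNA methylation genes none was called, but Dnmt3b and Dnmt3l came close, Dnmt3b at 1.84 and 2.35 RPKM in EloA_WT, 1.51 in CJ7_WT and 4.54 in Eed_null, and Dnmt3l at 1.02, 1.79, 1.00 and 3.28 RPKM in the same order.

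The genes called lower were led by a noncoding transcript, Gt(ROSA)26Sor, made at the Rosa26 locus. It had 10.2 and 11.9 RPKM in EloA_WT, 6.35 in CJ7_WT and 1.05 in Eed_null, and it was the only gene named both among the lowest against EloA_WT and among the lowest against all 3 wild-type columns. Pramel6, a gene of early embryos and naive stem cells, had 9.74 and 8.10 RPKM in EloA_WT, 1.57 in CJ7_WT and 0.884 in Eed_null. Aspa, which encodes aspartoacylase, had 6.12 and 5.66 RPKM in EloA_WT, 1.62 in CJ7_WT and 0.856 in Eed_null. For these 2 genes CJ7_WT lay far nearer to Eed_null than to EloA_WT.

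Short housekeeping genes made up much of the rest of the lowest. Psmb6, a catalytic proteasome subunit, had 39.4 and 50.7 RPKM in EloA_WT, 5.99 in CJ7_WT and 7.49 in Eed_null. Timm13, a chaperone of mitochondrial import, had 22.7 and 26.3 RPKM in EloA_WT, 3.09 in CJ7_WT and 3.69 in Eed_null. Spryd4, Mrp63, Mrpl34, Tmem93 and Ubl4 rested on 6 to 20 recovered counts in Eed_null. Rpl7a-ps12 and Pcna-ps2 are pseudogenes of Rpl7a and Pcna, so their reads may come from the parent genes.

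Set against all 3 wild-type columns, other genes came forward. Morc1, a germline ATPase that silences transposons, had 3.34 and 3.00 RPKM in EloA_WT, 2.52 in CJ7_WT and 0.722 in Eed_null on 11376 counts. Cd59a had 1.01 and 1.24 RPKM in EloA_WT, 0.991 in CJ7_WT and 0.220 in Eed_null. Myof, a ferlin of membrane repair, had 3.15 and 2.37 RPKM in EloA_WT, 4.00 in CJ7_WT and 0.686 in Eed_null. In each of the 3 genes the lowest wild-type column was still well above Eed_null. Ddc, which encodes the decarboxylase that makes dopamine and serotonin and is imprinted in the heart, had 1.61 and 1.08 RPKM in EloA_WT, 1.22 in CJ7_WT and 0.258 in Eed_null. Gpr1, a chemerin receptor, had 3.51 and 4.44 RPKM in EloA_WT, 4.21 in CJ7_WT and 1.17 in Eed_null. Apod, a lipid-carrying lipocalin, had 1.28 and 0.991 RPKM in EloA_WT, 0.776 in CJ7_WT and 0.197 in Eed_null. Exoc3l, Efhc2 and Lax1 completed the 10, with 0.531, 0.971 and 0.840 RPKM in CJ7_WT and 0.142, 0.297 and 0.268 RPKM in Eed_null, and with EloA_WT above CJ7_WT in each. An unnamed gene model, 1700042O10Rik, lay as far below and was passed over.

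Amino acid and stress genes were lower in Eed_null and also low in CJ7_WT. Of 48 targets of ATF4 and of the unfolded protein response tested, 0 were called higher and 18 (37.5%) lower, against 5.76% and 7.93% of all genes. Below both EloA_WT libraries lay 44, against 47.7% of all genes. The median was -0.87 for Eed_null and -0.93 for CJ7_WT. Asns, asparagine synthetase, had 35.8 and 40.1 RPKM in EloA_WT, 10.8 in CJ7_WT and 10.0 in Eed_null. Slc7a11, the cystine transporter, had 0.699 and 0.918 RPKM in EloA_WT, 0.230 in CJ7_WT and 0.0407 in Eed_null. Gpt2, a mitochondrial alanine transaminase, had 5.54 and 5.85 RPKM in EloA_WT, 3.71 in CJ7_WT and 1.70 in Eed_null. Slc7a11 and Gpt2 were the 2 members also at least 2-fold below CJ7_WT. Among 27 heat shock and oxidative stress genes 5 (18.5%) were called lower, against 7.93% of all genes. They included Nqo1, a quinone reductase under NRF2, with 2.26 and 2.60 RPKM in EloA_WT, 2.29 in CJ7_WT and 0.828 in Eed_null. Slc7a11 is on this list as well.

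Of 52 cytosolic ribosomal protein genes tested, 23 (44.2%) were called lower and 0 higher, against 7.93% and 5.76% of all genes, with a median of -1.01. After quantile normalization the median was -0.12, while the other settings left it between -1.05 and -0.81. Rpl14 had 32.8 and 31.0 RPKM in EloA_WT, 6.98 in CJ7_WT and 9.96 in Eed_null. The CJ7_WT median was lower still at -1.50, and no member was 2-fold below CJ7_WT. Of 29 cholesterol and fatty acid synthesis genes, 3 (10.3%) were called higher, against 5.76% of all genes, and 0 lower (median 0.29, CJ7_WT -0.17). Dhcr7, the reductase of the last step of cholesterol synthesis, had 0.345 and 0.257 RPKM in EloA_WT, 0.383 in CJ7_WT and 0.833 in Eed_null. Among 26 p53 targets 2 (7.69%) were called higher and 3 (11.5%) lower, against 5.76% and 7.93% of all genes. Above both EloA_WT libraries lay 5 and below both 19, against 36.4% and 47.7% of all genes. The median was -0.36 (CJ7_WT -0.15). Gdf15, a stress-induced cytokine, had 1.58 and 1.87 RPKM in EloA_WT, 0.412 in CJ7_WT and 0.185 in Eed_null. Pmaip1, a BH3-only protein, had 1.29 and 1.13 RPKM in EloA_WT, 0.741 in CJ7_WT and 4.21 in Eed_null. Interferon and innate sensing genes gave 2 higher calls of 18, Stat2 and Zbp1, and Zbp1 passed the filter only through Eed_null. Glycolysis and hypoxia genes gave 1 higher and 4 lower calls of 34, cell cycle genes 1 and 2 of 44, mesoderm genes 1 and 2 of 11, and primed pluripotency genes 1 and 0 of 14. Over all genes the shares were 5.76% higher and 7.93% lower, and nothing is read from such small counts. The lists of elongation factors, MAPK feedback genes, neuroectoderm genes and Y-linked genes gave 0 calls.

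Differences followed intron length, as estimated from the value of 1 recovered count. Genes were put in 5 equal classes by intron length. From the shortest to the longest class, the median difference from the EloA_WT mean went -0.42, -0.25, -0.15, -0.03 and 0.19, and for CJ7_WT it went from -0.63 to 0.15. The share called lower went from 19.9% in the shortest class to 1.77% in the longest, and the share called higher was 5.6% and 9.24% at the ends. Less the median of their own length class, the ribosomal genes stood at -0.70, the ATF4 list at -0.66, the developmental factors at 0.73, the germline list at 0.79 and the Hox genes at 1.10. For CJ7_WT, less the class median, the same lists stood at -0.92, -0.56, 0.27, -0.10 and 0.665 in that order. The developmental factor and Hox values include genes that passed the filter through Eed_null.

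**Figure D4:**
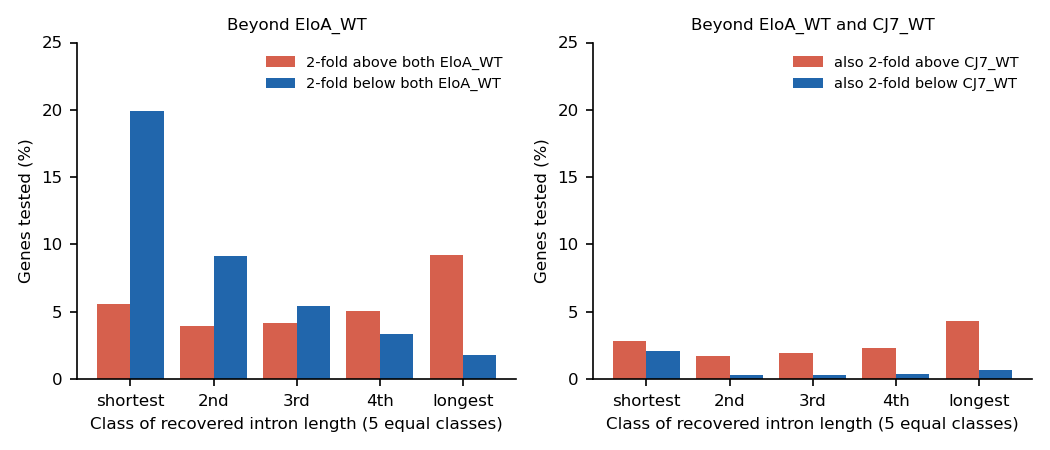
Share of genes tested, in percent, called 2-fold above (red) or below (blue) both EloA_WT libraries in each of 5 equal classes of recovered intron length (left), and the share also beyond CJ7_WT by 2-fold (right). Lower calls against EloA_WT go from 19.9% to 1.77% across the classes; against CJ7_WT as well, no class exceeds 4.33% in either direction.

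By chromosome, 2 autosomes stood apart in Eed_null. Chromosome 8 had a median difference of -0.46 from the EloA_WT mean, with 22 genes called higher and 106 lower of 762, and chromosome 11 had -0.42, with 50 higher and 194 lower of 1333. The other autosomes and X lay between -0.09 and 0.09. CJ7_WT had -0.28 on chromosome 8 and -0.45 on chromosome 11, so Eed_null lay 0.19 below CJ7_WT on chromosome 8 (log2 median) and 0.04 above it on chromosome 11. Without chromosomes 8, 11 and Y, 799 genes were called higher and 899 lower. The named genes on chromosome 8 include Zfp42, Col4a1, Col4a2, Cdh3, Gpt2, Nqo1, Mrpl34, Gdf15 and Exoc3l. Those on chromosome 11 include Col1a1, Hoxb9, Aspa, Psmb6, Tex19.1, Ddc, Tmem93, Tmem92 and Suz12. Of the 18 lower calls of the ATF4 list, 5 lie on chromosome 8 and 2 on chromosome 11. Of the 23 lower calls of the ribosomal list, 1 lies on chromosome 8 and 6 on chromosome 11. The part of gene dosage in these medians was not tested.

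**Figure D5:**
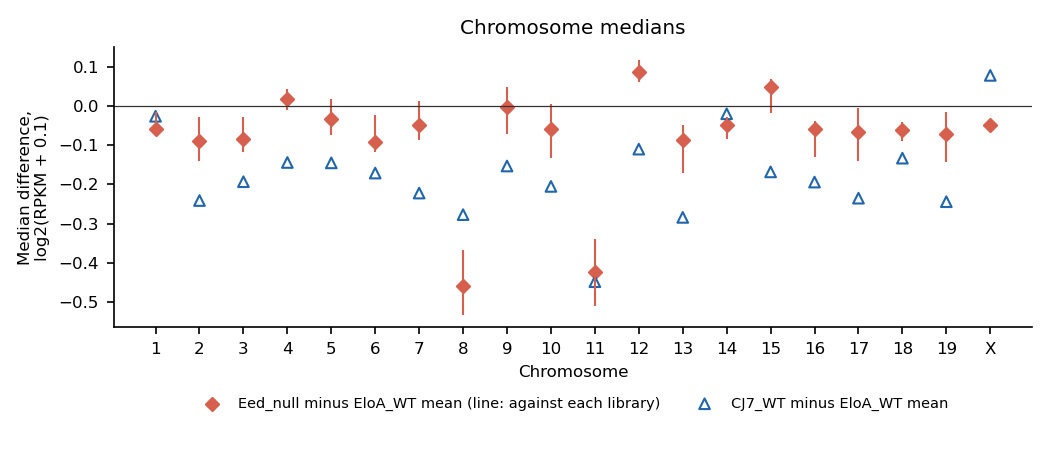
Median difference from the EloA_WT mean (log2(RPKM + 0.1)) on each autosome and X, for Eed_null (diamonds, with lines joining the medians against each EloA_WT library) and CJ7_WT (triangles). Chromosomes 8 and 11 lie at -0.46 and -0.42 for Eed_null, apart from the other chromosomes.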

How the data were processed

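Bru-seq reads were aligned with BWA to mm9, per the submitters' processing notes; no source used here gives versions, the counting tool, the annotation or the use of strand. The authors deposited 1 table of intronic RPKM per gene with 6 single-library columns and 2 averaged columns, and RPKM was used as deposited. Because RPKM steps are whole multiples of what 1 read is worth, counts were recovered: 35236129 and 29951143 in EloA_WT 1 and 2, 73970049 in Eed_null and 89135676 in CJ7_WT. They are reads or read pairs, uncertain by a factor of 2 for some genes, and served as depth and as a filter. They cover counting error only.

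Differences are on the log2(RPKM + 0.1) scale, which understates changes of low genes. Named genes were 8 fixed ones, the 15 farthest each way from both EloA_WT libraries (at least 0.5 RPKM and, where counts were recovered, 30 counts on the higher side, with unnamed gene models passed over), the 10 farthest each way from all 3 wild-type columns, up to 5 called members per list (2 where none was called), and Y-linked genes; other names were chosen after their values were seen. The comparison and the 26 lists were chosen with earlier results of these data known. Where a symbol stood on more than 1 line, the line whose identifier matched it was used. Chromosomes come from GENCODE M21 (GRCm38) by gene identifier for 94.6% of genes tested, and no coordinates of the table were used. As an alternative, limma 3.58.1 (R 4.3.3) took the averaged column as 1 observation with the spread of the 3 Elongin A groups, after a test on simulated data. Others varied the pseudocount, filter (also on EloA_WT alone, added after seeing the data), scaling, fold limit, chromosomes and control library. Python 3.11.15, numpy 2.4.6 and pandas 2.3.3 were used.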

Additional observations from a re-analysis of the deposited data

How the results depend on the processing

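The 871 higher and 1199 lower genes became 96 and 407 with log2(RPKM + 1), 396 higher with a mean of at least 0.5 RPKM (and 3394 in place of 5501 above both at any distance), 2019 and 2891 at 1.5-fold, and 267 and 330 at 3-fold. Requiring the same distance from CJ7_WT left 419 and 113, and 3694 genes below all 3 wild-type columns at any distance. Against 1 EloA_WT library in place of 2, higher genes numbered 1122 to 1537 and lower genes 1586 to 1986: without EloA_WT replicate 1 there were 1537 higher, and without EloA_WT replicate 2 there were 1986 lower. Genes above and below at any distance then numbered 6232 to 7102 and 7993 to 8851. Subtracting the trend with intron length, an alternative chosen after seeing the data, gave 853 and 903 calls. With the averaged column as 1 observation assumed to vary like the Elongin A groups, limma called 1119 genes higher (7.4%) and 1810 lower (12%) at an adjusted p under 0.05, including 690 of the 871 and 903 of the 1199. A filter on EloA_WT alone, also chosen after seeing the data, gave 602 and 1207. Of 108 called genes named by the stated rules, 52 kept their call with log2(RPKM + 1), 95 after quantile normalization, 96 with the length trend removed and 105 at equal medians. With the filter on EloA_WT alone only 87 of the 108 were tested, and with a mean of at least 0.5 RPKM only 80. None of the 108 changed direction under the settings in which they were tested. Most were named for large differences in these data, so nothing is read from that. Genes named only after their values were seen are not part of this tally. List medians changed sign under at least 1 of 11 settings for the elongation, glycolysis, interferon, MAPK, mesoderm, naive, neuroectoderm, PRC1, PRC2, primed and p53 lists. No paired analysis was possible because the Eed null samples share 1 averaged column. Depth limits the genes with few counts most, and the missing spread of Eed_null limits every call.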

Other observations

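Called genes sometimes lay side by side. Among tested genes in chromosome order (GENCODE M21), 23 stretches of at least 3 neighbours were all called higher and 23 all called lower. Over all genes tested, 5.76% were called higher and 7.93% lower, and the number of stretches to which these shares would lead was not worked out. Some stretches may count the same reads more than once, as where Nav1 stands on both sides of Gm4793. Several lower stretches lie on chromosomes 8 and 11, whose medians were low. The longest held 5 genes: Hoxc10, Hoxc9, Hoxc8, Hoxc6 and Hoxc4 on chromosome 15, and Gm15418, Col4a1, Col4a2, Gm15419 and Rab20 on chromosome 8. Apart from Hoxc6, the Hox genes of this stretch had an EloA_WT mean under 0.1 RPKM and passed the filter only through Eed_null. Nothing is therefore read from the Hox stretch, and CJ7_WT lay above both EloA_WT libraries in each of its genes. Some other higher stretches also held genes that passed only through Eed_null. Rab20, a small GTPase of endosomes, had 0.107 and 0.119 RPKM in EloA_WT, 0.102 in CJ7_WT and 0.516 in Eed_null.

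Among lower stretches, Gpr1 on chromosome 1 stood beside Gm11607 (4.85 and 5.91 RPKM in EloA_WT, 4.92 in CJ7_WT and 1.33 in Eed_null) and Gm11608 (2.98, 2.75, 4.60 and 1.23 RPKM in the same order). Ddc on chromosome 11 lay between Fignl1 (7.87, 6.79, 3.23 and 2.25 RPKM) and 1700042O10Rik (2.69, 1.99, 1.96 and 0.411 RPKM). Both Gm models and 1700042O10Rik were also low against CJ7_WT. Gene models without a proper name made up 31.1% of the higher and 35.1% of the lower genes, against 21.9% of genes tested.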
